A study of Mus musculus with 6 samples.

Results

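CC chemokines and their receptors were examined in 6 RNA libraries from colon tumors of mice given AOM and DSS, 3 libraries labelled Tmem173fl/fl and 3 labelled Tmem173iΔmye. The genes were chosen by name alone, as the protein-coding rows of the deposited table named Ccl or Ccr with a number, together with Ccrl2, and 41 of 54532 rows met this rule. They comprised 30 rows for ligands, which carry 24 gene names because some ligands are listed more than once, and 11 rows for receptors. All mice were C57BL/6N mice whose Tmem173, the gene for the DNA-sensing adaptor STING, was flanked by loxP sites. All received the carcinogen azoxymethane (AOM) and 3 cycles of dextran sodium sulfate (DSS), which injures the colon, and tamoxifen (TAM) only after these cycles. The Tmem173iΔmye mice also carried a Lyz2-driven, TAM-activated Cre recombinase (Lzym-Creert2), which acts in cells expressing Lyz2, mainly macrophages, monocytes and neutrophils. The Tmem173fl/fl mice lacked Cre, so they controlled for TAM and for the floxed alleles but not for Cre itself. Age at tumor collection was not given in the sources used here. The comparison asked how deleting myeloid STING once tumors had formed changed gene expression in the tumor.

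CC chemokines are small secreted proteins with adjacent cysteines near their start, and they guide white blood cells along gradients by binding G protein-coupled receptors. CCR2 and its ligands draw monocytes out of the blood, CCR1 serves monocytes and macrophages, CCR7 leads dendritic cells and naive lymphocytes towards lymph nodes, and CCR6 is found on B cells and on T cells that make interleukin-17. In the colon, epithelial cells release CCL28 and CCL20, and CCR10, a receptor for CCL28, is carried by plasma cells that secrete IgA.

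Gene counts came to 15329810 to 16533732 per tumor, so 3 counts, the most that an observed 0 allows, amounted to 0.181 to 0.196 CPM (reads on a gene scaled to a common library size, 1000000 reads). Levels are given in FPKM, the reads on a gene divided by its length and by library size. Epithelial markers summed to 4142 to 4514 FPKM in Tmem173fl/fl and 4336 to 5148 FPKM in Tmem173iΔmye tumors, and all 7 of them were detected above the filter described below. Tmem173 itself had 1705 to 2911 counts in Tmem173fl/fl and 1953 to 2291 counts in Tmem173iΔmye tumors, so whole-tumor RNA did not tell the genotypes apart. Y-linked genes were expressed in Tmem173fl/fl replicate 1 and in Tmem173iΔmye replicates 1 and 2, so sex was not balanced between the groups. Tmem173iΔmye replicate 1 stood apart for many of the genes described here, and fold changes of members are given with their range on leaving out 1 tumor at a time.

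The ligand genes lie mostly on chromosome 11 and the receptor genes mostly on chromosome 9. In the coordinates of GRCm38, 11 of the 30 ligand rows were on chromosome 11 and 8 of the 11 receptor rows on chromosome 9. A further 12 rows were copies of Ccl19, Ccl21 and Ccl27 on chromosome 4 and on unplaced scaffolds. RefSeq promoter windows (GRCm38.p6) were found for 24 of the 41 rows, 15 of them rows that passed the filter. The windows taken for Ccl1, Ccr9, Ccl21b and Ccr4 lay 125878, 88772, 82647 and 8372 bases from the start listed for the row. These rows were under the filter, and none of their windows held a match to the motifs below. The 250 bases before the start of transcription are shown from 5′ to 3′ for Ccl8 and Ccl12, neighbours on chromosome 11 whose levels spanned very different ranges between tumors, and for Ccl20, an epithelial ligand. Capitals mark the TATA box (TATAAA) in Ccl8 and Ccl12 and, in Ccl20, a match on the opposite strand to the letters of a kappa B site (GGG, any 2 bases, TTTCC).
Ccl8, chr11:82114935-82115184, plus strand: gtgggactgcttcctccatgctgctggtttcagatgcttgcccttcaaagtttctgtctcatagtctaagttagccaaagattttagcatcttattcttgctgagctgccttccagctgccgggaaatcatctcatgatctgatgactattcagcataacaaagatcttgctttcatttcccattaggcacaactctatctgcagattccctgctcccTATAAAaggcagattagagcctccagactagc
Ccl12, chr11:82101595-82101844, plus strand: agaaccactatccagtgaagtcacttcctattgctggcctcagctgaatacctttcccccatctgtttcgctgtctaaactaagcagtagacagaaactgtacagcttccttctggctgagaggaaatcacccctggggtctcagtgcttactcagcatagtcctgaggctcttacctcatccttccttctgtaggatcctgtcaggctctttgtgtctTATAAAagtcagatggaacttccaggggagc
Ccl20, chr1:83116516-83116765, plus strand: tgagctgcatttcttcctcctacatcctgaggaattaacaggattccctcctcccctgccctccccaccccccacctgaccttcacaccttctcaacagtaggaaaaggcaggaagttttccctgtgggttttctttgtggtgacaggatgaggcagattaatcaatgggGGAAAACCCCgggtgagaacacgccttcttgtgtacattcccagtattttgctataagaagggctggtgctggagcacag

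Counted back from the start of transcription, the TATA box began at position -32 in Ccl8 and -31 in Ccl12, and the kappa B match at position -80 in Ccl20. On either strand, TATAAA occurred in 12.4% of 32851 promoter windows of this length and in 3 of the 24 found for members, those of Ccl8, Ccl9 and Ccl12. The kappa B letters occurred in 1.41% of all windows and in those of Ccl9, Ccl20 and Ccr3. The letters of an interferon response element (GAAA, any 2 bases, GAAA) occurred in 2.98% of all windows and, among members, in that of Ccl19. Those of an interferon gamma activated site (TTC, any 3 bases, GAA) occurred in 7.02% of all windows and in those of Ccl17 and Ccr6. In Ccl9 the motifs did not overlap each other except for 2 of its 3 TATAAA matches, which lie on opposite strands.

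Of the 41 rows, 25 had a mean of at least 0.5 FPKM over the 6 tumors and were tested, 18 ligands and 7 receptors, and 7 of the 16 others had 0 counts in every tumor. Ccl6 was the most abundant ligand and Ccr1 the most abundant receptor. No tested member passed an adjusted p of 0.05, where edgeR gave 0.742 to 0.9996 over the 16426 genes tested and 0 genes passed. DESeq2 gave no member an adjusted p under 0.05 either. At an unadjusted p under 0.05, 3 of 25 members were higher in Tmem173iΔmye tumors (Ccl5, Ccl4 and Ccr10) and 0 were lower, against 3.23% and 2.9% of all genes tested (6.14% in either direction). Of these, Ccr10 had a mean under 0.5 FPKM in Tmem173fl/fl tumors and so was tested only through the group where it was higher, as was Ccl24 below. The same 3 members passed the study's limits, a log2 fold change of at least 1 in size with an unadjusted p under 0.05, against 1.26% of all genes higher, 0.864% lower and 2.12% in all. DESeq2 put 6 members at an unadjusted p under 0.05, all higher, against 3.57% of genes.

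For Tmem173iΔmye over Tmem173fl/fl tumors, the log2 fold change was above 0 for 22 of 25 members, with a median of 0.55, against 49.4% of all genes tested and a median of -0.0042. A value of at least 1 was found for 7 members, against 3.12% of all genes. Of these members, Ccl24 and Ccr10 passed the filter only through the group where they were higher. The median standard error (SE) was 0.46 for members and 0.23 for all genes tested, so this share is not a like-for-like background. Without Tmem173iΔmye replicate 1, 18 of 25 members were above 0 against 46.9% of genes, the members' median was 0.25, and 0 members were higher at an unadjusted p under 0.05, against 1.81% of genes. With a term for whether a tumor had Y-linked reads (called the Y-linked term below), 3 members had an unadjusted p under 0.05 (Ccl8, Ccl28 and Ccr10), against 3.37% of genes. These counts describe members that passed a filter on their mean over both groups, and they were not tested as a group. Fits without 1 tumor each put 535 to 1665 of the 16426 genes at an unadjusted p under 0.05, against 1008 with all tumors. Each member had 6 such fits, so a p under 0.05 in some of them is given below as description only.

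**Figure D1:**
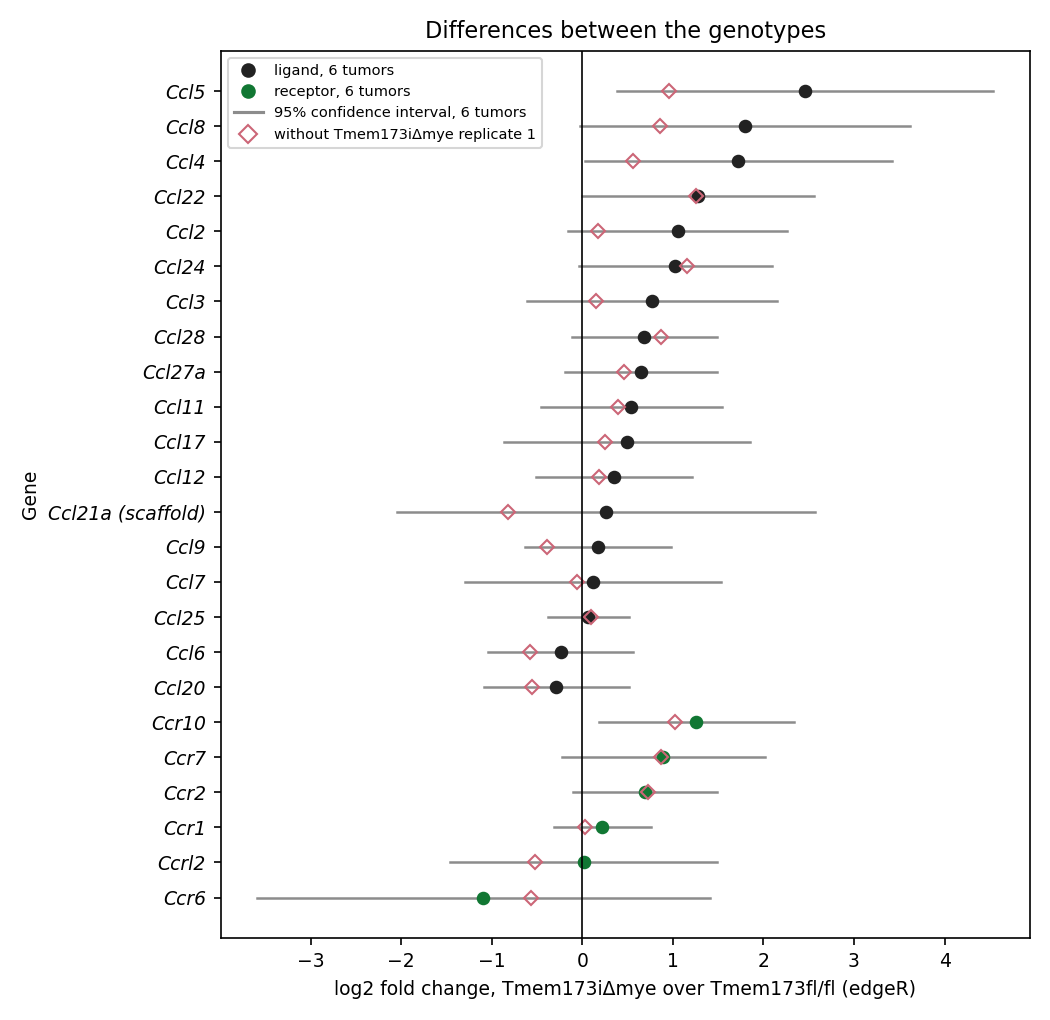
Log2 fold change of Tmem173iΔmye over Tmem173fl/fl for 24 of the 25 tested members, with filled points and 95% confidence intervals for all 6 tumors and open diamonds without Tmem173iΔmye replicate 1. The intervals of Ccl5, Ccl4 and Ccr10 lie above 0, and the diamonds of Ccl5, Ccl8, Ccl4 and Ccl2 lie well to the left of their points.

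Ccl6 and Ccl9 are neighbours on chromosome 11 and encode ligands of CCR1 that mouse macrophages make at high levels. For Ccl6 (chromosome 11, 83587882 to 83593087, minus strand), Tmem173fl/fl replicates 1, 2 and 3 had 2397, 1137 and 1314 counts and Tmem173iΔmye replicates 1, 2 and 3 had 1968, 1215 and 978, and all lists below keep this order. The groups overlapped, and in each the tumor numbered 1 was highest. Its level was 57.2 ± 24.5 FPKM (SD, n = 3) in Tmem173fl/fl and 48.6 ± 18.1 FPKM (SD, n = 3) in Tmem173iΔmye tumors. The log2 fold change of -0.24 ± 0.35 (SE) was smaller than its error, with an adjusted p of 0.870, and leaving out a tumor gave values between -0.58 (without Tmem173iΔmye replicate 1) and 0.18 (without Tmem173fl/fl replicate 1). Ccl9 counts were 362, 317 and 392 against 667, 290 and 257, highest in Tmem173iΔmye replicate 1. Its log2 fold change was 0.17 ± 0.35 (SE) (unadjusted p = 0.639, adjusted p = 0.911 by edgeR) with all tumors, and between -0.40 (without Tmem173iΔmye replicate 1) and 0.41 (without Tmem173iΔmye replicate 3) with a tumor left out.

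Added up over all ligands, the tumors had 142, 87.6 and 86.0 FPKM in the Tmem173fl/fl group and 197, 101 and 93.5 FPKM in the Tmem173iΔmye group. Ccl6 alone supplied 60.2, 48.3 and 50.7% of this total in Tmem173fl/fl tumors and 35.0, 42.1 and 36.9% in Tmem173iΔmye tumors. Its share was lower in every Tmem173iΔmye than in every Tmem173fl/fl tumor, at 38.0% ± 3.67 (SD, n = 3) against 53.1% ± 6.26 (SD, n = 3). This measure was chosen after its values were seen, and the exact two-sided permutation test gave p = 0.1, the smallest that 3 libraries against 3 allow. That p was fixed once the groups were seen not to overlap, so no support is drawn from it. Without Ccl6 the remaining ligands summed to 56.6, 45.3 and 42.4 FPKM against 128, 58.2 and 59.0 FPKM, groups that did not overlap but came close. This sum was not among the planned measures, and with Ccl6 included the groups overlapped, so nothing is read from the separation.

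**Figure D2:**
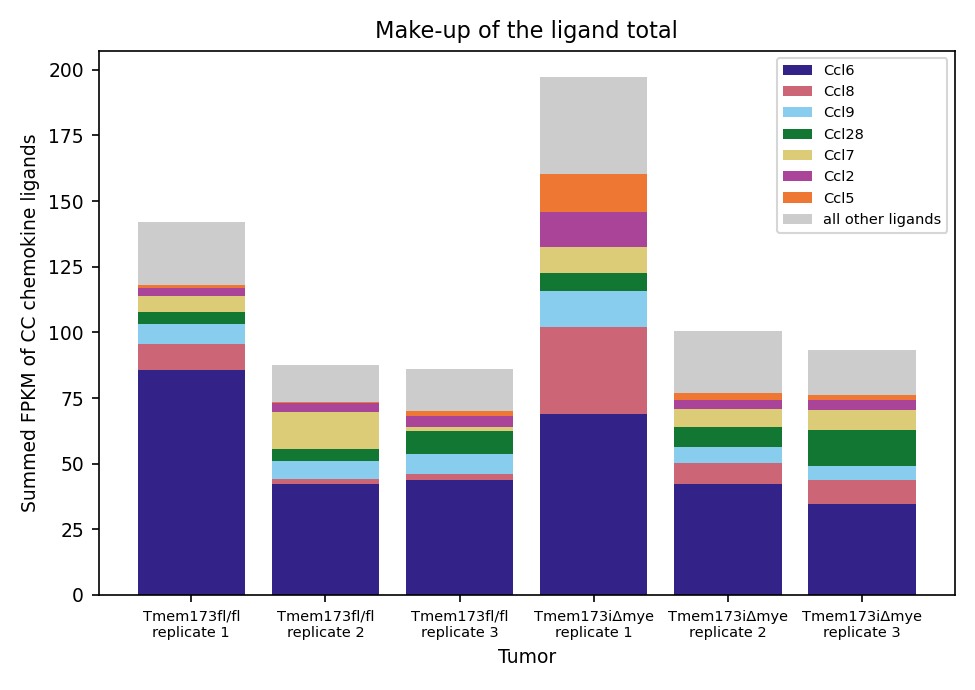
Summed FPKM of all CC chemokine ligands in each tumor, with a bar for each tumor and a color for each of the 7 ligands with the highest mean FPKM. Ccl6 fills 35.0% to 60.2% of a bar, and Tmem173iΔmye replicate 1 has the tallest bar, at 197 FPKM.

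Ccl2, Ccl7, Ccl8 and Ccl12 lie together on chromosome 11 and encode the monocyte chemoattractant proteins, which mostly act on CCR2, while mouse CCL8 also binds CCR8. Ccl8 (chromosome 11, 82115185 to 82116799, plus strand) had 81, 14 and 21 counts against 268, 66 and 76. Its CPM spanned 18.1-fold between the lowest and the highest tumor, and the groups overlapped because Tmem173fl/fl replicate 1 exceeded Tmem173iΔmye replicates 2 and 3. Mean levels of Ccl8 were 4.81 ± 4.63 FPKM (SD, n = 3) in Tmem173fl/fl and 16.8 ± 14.0 FPKM (SD, n = 3) in Tmem173iΔmye tumors. Its log2 fold change was 1.795 ± 0.79 (SE), a 3.47-fold difference (unadjusted p = 0.0526, adjusted p = 0.742 by edgeR). With a tumor left out it lay between 0.85 (without Tmem173iΔmye replicate 1) and 2.96 (without Tmem173fl/fl replicate 1). The unadjusted p of Ccl8 was under 0.05 without Tmem173fl/fl replicate 1, Tmem173iΔmye replicate 2 or Tmem173iΔmye replicate 3. In these fits 1665, 794 and 925 of the 16426 genes tested had an unadjusted p under 0.05. Ccl12, the neighbour whose promoter also holds a TATA box at almost the same place, had 30, 17 and 22 counts against 36, 27 and 26. It ranged from 1.13 to 2.27 CPM, with a log2 fold change of 0.35 ± 0.37 (SE) that lay between 0.19 (without Tmem173iΔmye replicate 1) and 0.61 (without Tmem173fl/fl replicate 1) with a tumor left out.

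Ccl2 had 49, 60 and 75 counts against 245, 67 and 72. Tmem173iΔmye replicate 1 was 3.38-fold above the next tumor in CPM, and the other 5 tumors lay close together. The log2 fold change of Ccl2 was 1.05 ± 0.52 (SE) with all tumors and between 0.17 (without Tmem173iΔmye replicate 1) and 1.36 (without Tmem173iΔmye replicate 2) with a tumor left out, and the unadjusted p was under 0.05 without Tmem173iΔmye replicate 2 or Tmem173iΔmye replicate 3. Ccl7 had 79, 166 and 24 counts against 124, 85 and 93, so that Tmem173fl/fl tumors held both its highest and its lowest value, and its log2 fold change of 0.12 ± 0.61 (SE) lay between -0.34 (without Tmem173fl/fl replicate 3) and 0.96 (without Tmem173fl/fl replicate 2) with a tumor left out. The 4 neighbours thus differed among themselves, since Tmem173iΔmye replicate 1 exceeded each other tumor at least 3-fold for Ccl2 and Ccl8 but not for Ccl7 or Ccl12.

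Ccl3, Ccl4 and Ccl5 encode inflammatory chemokines that activated macrophages, natural killer cells and T cells secrete. Ccl5 (chromosome 11, 83525778 to 83530518, minus strand) had 17, 5 and 30 counts against 218, 38 and 29. Tmem173iΔmye replicate 1 was 5.75-fold above the next tumor in CPM. With library sizes scaled by TMM the groups did not overlap, at 1.105, 0.3334 and 1.801 CPM against 13.76, 2.394 and 1.846 CPM, while raw counts and CPM from library totals overlapped between the tumors numbered 3. Its log2 fold change of 2.46 ± 0.90 (SE) was the highest among tested members (95% confidence interval 0.38 to 4.54, unadjusted p = 0.0261, adjusted p = 0.742 by edgeR). It was 0.95 without Tmem173iΔmye replicate 1 (unadjusted p = 0.186) and 1.82 with the Y-linked term (unadjusted p = 0.114). The unadjusted p of Ccl5 was over 0.05 on leaving out other tumors too, with a log2 fold change of 2.47 without Tmem173fl/fl replicate 1 and 2.04 without Tmem173fl/fl replicate 2.

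Ccl4 had 9, 6 and 6 counts against 50, 9 and 12. Tmem173iΔmye replicate 1 was 4.13-fold above the next tumor in CPM, and Tmem173fl/fl replicate 1 lay just above Tmem173iΔmye replicate 2. The log2 fold change of Ccl4 was 1.72 ± 0.73 (SE) (95% confidence interval 0.025 to 3.42, unadjusted p = 0.0474, adjusted p = 0.742 by edgeR), and 0.56 without Tmem173iΔmye replicate 1 (unadjusted p = 0.350). The unadjusted p of Ccl4 was over 0.05 on leaving out other tumors too, with a log2 fold change of 1.96 without Tmem173fl/fl replicate 1, 1.65 without Tmem173fl/fl replicate 2 and 1.59 without Tmem173fl/fl replicate 3. Ccl3 had 15, 6 and 14 counts against 34, 17 and 9, with overlapping groups. Ccl3 had a log2 fold change of 0.77 ± 0.60 (SE) with all tumors and between 0.15 (without Tmem173iΔmye replicate 1) and 1.11 (without Tmem173iΔmye replicate 3) with a tumor left out. T cell markers summed to 5.49 to 11.7 FPKM in Tmem173fl/fl and 7.09 to 12.9 FPKM in Tmem173iΔmye tumors, and 0 of the 7 tested of 9 had an unadjusted p under 0.05. For T cell markers, 6 of the 7 tested were above 0 on the log2 scale and their median was 0.70. Neutrophil markers, 6 of 6 tested, summed to 254, 80.2 and 202 FPKM against 545, 142 and 131 FPKM, highest in Tmem173iΔmye replicate 1. For neutrophil markers, 5 of the 6 tested were above 0 on the log2 scale and their median was 0.69, or -0.35 without Tmem173iΔmye replicate 1. The part of these cells in the levels of Ccl3, Ccl4 and Ccl5 was not tested, and in whole tumors more cells of a type and more RNA per cell cannot be told apart.

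Among the 25 tested members, 14 had their highest CPM in Tmem173iΔmye replicate 1 (10 ligands and 4 receptors), against 24.9% of all genes tested. For Ccl2, Ccl4, Ccl5 and Ccl8, 4 of the 25, this tumor was at least 3-fold above the next, against 0.731% of all genes tested.

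**Figure D3:**
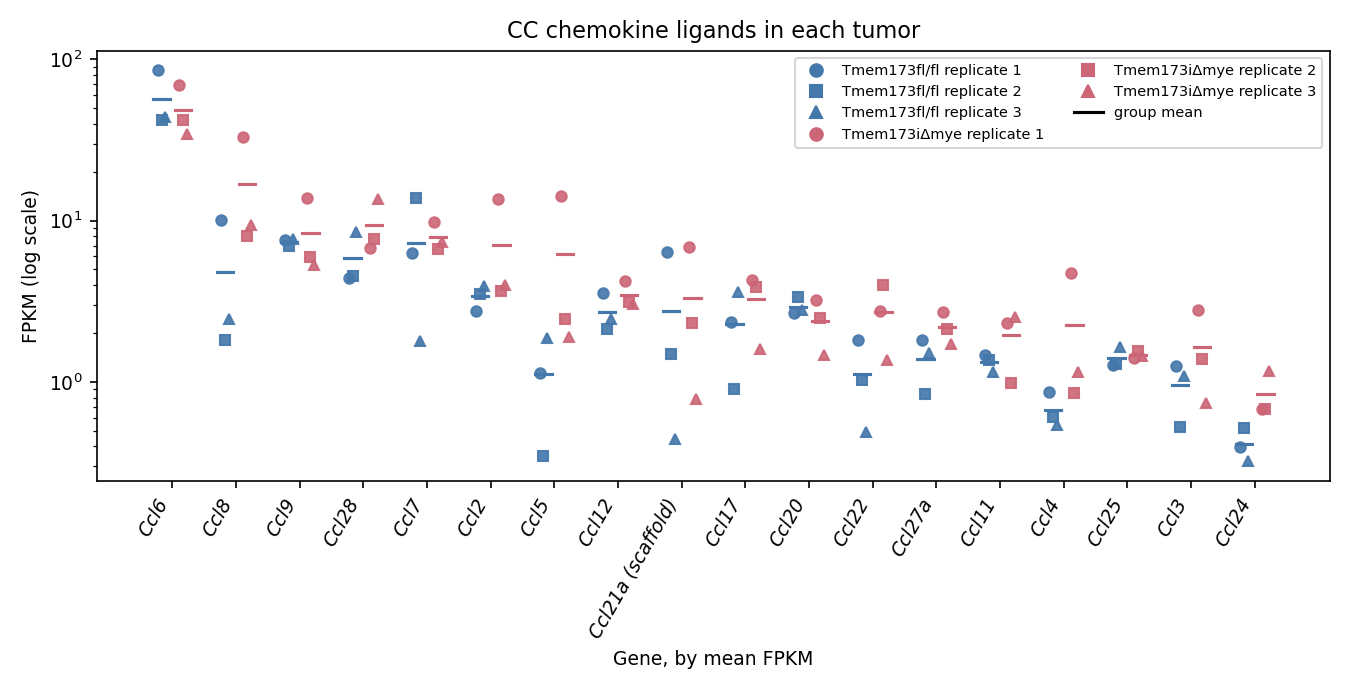
FPKM, on a log axis, of the 18 tested CC chemokine ligand rows in each of the 6 tumors, ordered by mean FPKM, with color for genotype, symbol for replicate and a line at each group mean. Tmem173iΔmye replicate 1 lies at least 3-fold above every other tumor for Ccl8, Ccl2, Ccl5 and Ccl4, while Ccl25 spans 1.28-fold in CPM.

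Ccl11 and Ccl24 encode eotaxins, which attract eosinophils through CCR3. Ccl24 had 8, 10 and 7 counts against 14, 14 and 24. Every Tmem173iΔmye tumor was above every Tmem173fl/fl tumor, as for 6.03% of all genes tested (12.5% in either direction), and 3 of 25 members did so (Ccl5, Ccl24 and Ccr10). The difference rested on few reads, with a log2 fold change of 1.03 ± 0.46 (SE) (unadjusted p = 0.0566, adjusted p = 0.742 by edgeR) that lay between 0.72 (without Tmem173iΔmye replicate 3) and 1.21 (without Tmem173fl/fl replicate 2) with a tumor left out. Ccl24 and Ccr10 had means of 0.411 and 0.447 FPKM in Tmem173fl/fl tumors and passed the filter only through the group where they were higher, so nothing is read from their part in this count. Ccl11 had 25, 22 and 21 counts against 40, 17 and 43, with overlapping groups. Their receptor gene Ccr3 had 0, 0 and 0 counts against 1, 0 and 2, at or under the floor in both groups, and Ccl26 had 0 counts in every tumor. Eosinophil markers summed to 0.999 to 3.91 FPKM against 2.22 to 2.94 FPKM, and 2 of the 4 were tested.

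Ccl17 and Ccl22 encode the ligands of CCR4, which dendritic cells and macrophages make and which attract regulatory and helper T cells. Ccl22 had 66, 36 and 19 counts against 102, 148 and 50, highest in Tmem173iΔmye replicate 2. Tmem173fl/fl replicate 1 exceeded Tmem173iΔmye replicate 3, so the groups overlapped. The log2 fold change of Ccl22 was 1.28 ± 0.55 (SE) (unadjusted p = 0.0506 by edgeR). With a tumor left out it lay between 0.88 (without Tmem173iΔmye replicate 2) and 1.84 (without Tmem173fl/fl replicate 1), and the unadjusted p was under 0.05 without Tmem173fl/fl replicate 1 or Tmem173iΔmye replicate 3. Ccl17 had 19, 7 and 31 counts against 35, 32 and 13, and its receptor gene Ccr4, under the filter, had 7, 10 and 9 against 12, 15 and 7. Both overlapped between the groups.

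Ccl28, a mucosal ligand of CCR10 and CCR3, had 335, 329 and 693 counts against 524, 596 and 1047. In each group the tumor numbered 3 was highest, and Tmem173fl/fl replicate 3 exceeded Tmem173iΔmye replicates 1 and 2. The log2 fold change of Ccl28 was 0.69 ± 0.35 (SE) (unadjusted p = 0.0848 by edgeR) and, with the Y-linked term, 0.89 (unadjusted p = 0.0112). Leaving out a tumor gave Ccl28 values between 0.31 (without Tmem173iΔmye replicate 3) and 1.07 (without Tmem173fl/fl replicate 3), and the unadjusted p was under 0.05 without Tmem173fl/fl replicate 3. Ccl27a on chromosome 4, the other CCR10 ligand, had 68, 30 and 60 counts against 103, 81 and 65 and a log2 fold change of 0.65 ± 0.36 (SE) that lay between 0.39 (without Tmem173fl/fl replicate 2) and 0.90 (without Tmem173fl/fl replicate 1) with a tumor left out.

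Ccr10 (chromosome 11, 101172997 to 101175443, minus strand) had 12, 16 and 8 counts against 38, 19 and 31. Every Tmem173iΔmye tumor was above every Tmem173fl/fl tumor in counts, in CPM scaled by TMM and in CPM from library totals. These scales hold the same reads. Ccr10 passed the filter only through the Tmem173iΔmye tumors, so nothing is read from this separation. Its level was 0.447 ± 0.172 FPKM (SD, n = 3) in Tmem173fl/fl and 1.07 ± 0.354 FPKM (SD, n = 3) in Tmem173iΔmye tumors. The log2 fold change was 1.26 ± 0.46 (SE) (95% confidence interval 0.18 to 2.33, unadjusted p = 0.0276, adjusted p = 0.742 by edgeR). It was 1.03 without Tmem173iΔmye replicate 1 (unadjusted p = 0.0881) and 1.28 with the Y-linked term (unadjusted p = 0.0446). The unadjusted p of Ccr10 was over 0.05 on leaving out other tumors too, with a log2 fold change of 1.26 without Tmem173fl/fl replicate 1, 1.01 without Tmem173fl/fl replicate 3 and 1.21 without Tmem173iΔmye replicate 3. Ccr10 overlaps Cntnap1 on the opposite strand without sharing exon bases. Plasma cell markers summed to 168 to 208 FPKM in Tmem173fl/fl and 200.4 to 319 FPKM in Tmem173iΔmye tumors, and 1 of the 4 tested of 5 was higher at an unadjusted p under 0.05. The part of plasma cells in the level of Ccr10 was not tested.

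Ccl20 and its receptor CCR6 link the epithelium to lymphoid follicles. Ccl20 had 59, 71 and 67 counts against 73, 57 and 33, overlapping between the groups. With Ccl6, it was one of the 2 tested ligands below 0, with a log2 fold change of -0.29 ± 0.34 (SE) (95% confidence interval -1.09 to 0.51) that lay between -0.56 (without Tmem173iΔmye replicate 1) and -0.033 (without Tmem173iΔmye replicate 3) with a tumor left out. Ccr6 had 75, 20 and 5 counts against 2, 35 and 11, a 38.6-fold span in CPM within which the groups overlapped. For Ccr6 the log2 fold change was -1.09 ± 1.08 (SE), about as large as its error, and between -2.37 (without Tmem173iΔmye replicate 2) and 0.32 (without Tmem173fl/fl replicate 1) with a tumor left out. B cell markers, 5 of 5 tested, summed to 48.2, 6.61 and 1.25 FPKM against 3.39, 26.9 and 2.58 FPKM. Ccr6 and these markers shared their highest tumor, Tmem173fl/fl replicate 1, and their next highest, Tmem173iΔmye replicate 2, while the part of B cells in the level of Ccr6 was not tested.

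**Figure D4:**
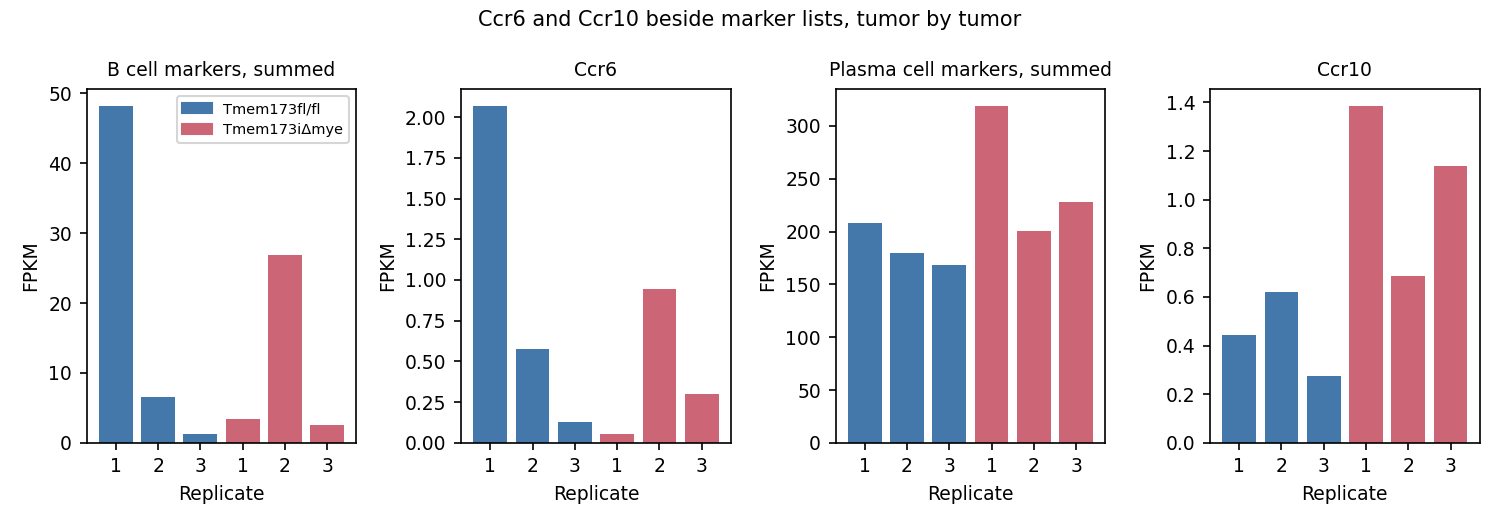
FPKM in each tumor of the summed B cell markers, Ccr6, the summed plasma cell markers and Ccr10, with blue bars for Tmem173fl/fl and red bars for Tmem173iΔmye replicates 1 to 3. Ccr6 and the B cell markers are highest in Tmem173fl/fl replicate 1, at 2.07 and 48.2 FPKM, and Ccr10 and the plasma cell markers in Tmem173iΔmye replicate 1, at 1.39 and 319 FPKM. Sdc1 alone supplies 160 of these 319 FPKM. Of the 5 plasma cell markers, Sdc1 and Jchain are highest in this tumor, and Mzb1, Prdm1 and Tnfrsf17 in other tumors.

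CCR7 and its ligands CCL19 and CCL21 organise lymphoid tissue. Ccr7, the receptor gene next to Ccr1 in mean FPKM, had 70, 25 and 39 counts against 86, 120 and 46. Its groups overlapped, with a log2 fold change of 0.89 ± 0.48 (SE) (unadjusted p = 0.102, adjusted p = 0.742 by edgeR). It lay between 0.55 (without Tmem173iΔmye replicate 2) and 1.40 (without Tmem173fl/fl replicate 1) with a tumor left out, and the unadjusted p was under 0.05 without Tmem173fl/fl replicate 1 or Tmem173iΔmye replicate 3. The Ccl21a row on the unplaced scaffold JH584294.1 had 40, 9 and 3 counts against 44, 15 and 5, with the tumor numbered 1 highest in each group. Its log2 fold change was 0.26 ± 0.995 (SE), far below its error, and between -0.82 (without Tmem173iΔmye replicate 1) and 1.79 (without Tmem173fl/fl replicate 1) with a tumor left out. The Ccl21a row on chromosome 4 had 0, 2 and 0 counts against 3, 0 and 0. Ccl19 on chromosome 4 had 1, 0 and 0 counts against 0, 1 and 0, Ccl21c on the scaffold GL456350.1 had 0, 0 and 0 against 1, 0 and 0, and Ccl27b had 1, 0 and 0 against 0, 0 and 0. A further copy each of Ccl19 and Ccl21c, both copies of Ccl21b and 2 scaffold copies of Ccl27a had 0 counts in every tumor. These copies are nearly identical, and how reads that match several of them were counted was not given in the sources used here, so their levels are uncertain.

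CCR1 and CCR2 are carried by monocytes and macrophages. Ccr1 had 196, 161 and 263 counts against 299, 226 and 198, or 4.59 ± 0.880 FPKM (SD, n = 3) and 5.35 ± 1.15 FPKM (SD, n = 3). Its groups overlapped, and its log2 fold change was 0.22 ± 0.23 (SE) (unadjusted p = 0.371, adjusted p = 0.817 by edgeR) with all tumors and between 0.032 (without Tmem173iΔmye replicate 1) and 0.38 (without Tmem173fl/fl replicate 3) with a tumor left out. Ccr2 had 104, 61 and 128 counts against 149, 217 and 108, with a log2 fold change of 0.69 ± 0.34 (SE) (unadjusted p = 0.0792, adjusted p = 0.742 by edgeR). Highest in Tmem173iΔmye replicate 2, it lay between 0.40 (without Tmem173iΔmye replicate 2) and 0.90 (without Tmem173iΔmye replicate 3) with a tumor left out, and the unadjusted p was under 0.05 without Tmem173iΔmye replicate 3. The groups of Ccr2 overlapped, since Tmem173iΔmye replicate 3 lay within the range of the Tmem173fl/fl tumors. Macrophage and monocyte markers summed to 323 to 528 FPKM in Tmem173fl/fl and 307 to 540.0 FPKM in Tmem173iΔmye tumors, and 0 of 11 had an unadjusted p under 0.05.

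CCRL2 binds chemerin without signalling and is placed among the atypical receptors. Ccrl2 had 47, 12 and 44 counts against 56, 35 and 13, with overlapping groups. Its log2 fold change of 0.014 ± 0.64 (SE) was -0.034 with library totals as the scaling, and between -0.52 (without Tmem173iΔmye replicate 1) and 0.40 (without Tmem173iΔmye replicate 3) with a tumor left out.

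**Figure D5:**
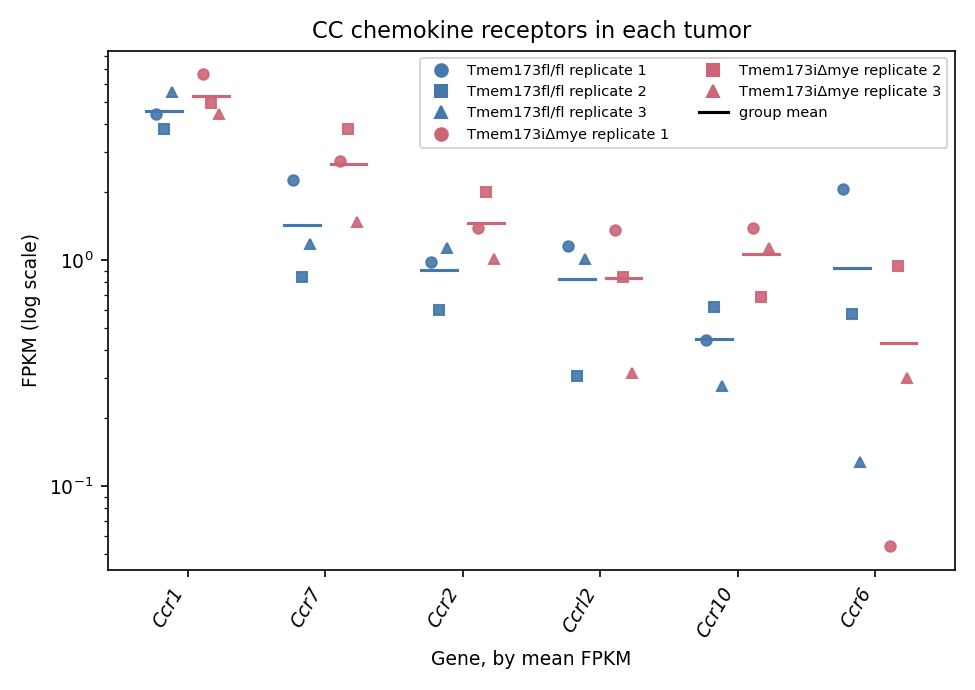
FPKM, on a log axis, of 6 of the 7 tested CC chemokine receptors in each of the 6 tumors, ordered by mean FPKM, with color for genotype, symbol for replicate and a line at each group mean. Ccr10 is the receptor shown whose groups do not overlap, and it passed the filter only through its higher group. Ccr6 spans 38.6-fold in CPM between its lowest and highest tumor.

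Ccl25, the ligand of CCR9 that guides lymphocytes to the gut, had 148, 144 and 205 counts against 166, 185 and 171. At 0.066 ± 0.19 (SE), its log2 fold change had a 95% confidence interval of -0.38 to 0.52, the narrowest among tested members. Leaving out a tumor gave values between 0.0052 (without Tmem173fl/fl replicate 1) and 0.20 (without Tmem173fl/fl replicate 3), and 204 of its 7445 exon bases overlap Elavl1 on the opposite strand. Ccr9, under the filter, had 21, 10 and 14 counts against 9, 16 and 11. Its listed span overlaps Lztfl1 and Slc6a20a. Ccr8, also under the filter, had 4, 2 and 11 counts against 9, 3 and 7. Both overlapped between the groups.

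Ccl1 encodes a ligand of CCR8 and was likewise under the filter, with 3, 1 and 4 counts against 28, 9 and 8. Each Tmem173iΔmye tumor was above each Tmem173fl/fl tumor, and Tmem173iΔmye replicate 1 was 3.12-fold above the next in CPM. How many genes under the filter did the same was not counted, so nothing is read from this separation or this excess. Fitted with all 30939 genes that had any count, its log2 fold change was 2.45 ± 0.76 (SE) (unadjusted p = 0.00511, adjusted p = 0.568 by edgeR). In that fit 3.19% of genes were higher at an unadjusted p under 0.05 and 5.63% passed in either direction. No Tmem173fl/fl tumor had more than 4 reads of Ccl1, no fit without Tmem173iΔmye replicate 1 was made for it, and Tmem173iΔmye replicates 2 and 3 had 0.567 and 0.509 CPM against at most 0.240 CPM in Tmem173fl/fl tumors.

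Among 8 other genes of the system, for atypical receptors and for C and CX3C chemokines and their receptors, 6 were tested and 0 had an unadjusted p under 0.05. Their median log2 fold change was 0.056. Those with the lowest p-values were Ackr3, a scavenging receptor, at -0.24 ± 0.22 (SE) with an unadjusted p of 0.303, Cx3cl1, the ligand of CX3CR1, at 0.10 ± 0.18 (SE) with an unadjusted p of 0.598, and Xcl1, a T cell chemokine, at -0.38 ± 1.10 (SE) with an unadjusted p of 0.735. Of 31 genes for signalling downstream of chemokine receptors, 29 were tested, with a median log2 fold change of 0.033. At an unadjusted p under 0.05, 0 were higher and 1 was lower, against 3.23% and 2.9% of all genes tested. This gene was Vav1, which encodes a guanine nucleotide exchange factor of white blood cells, with 510, 476 and 558 counts against 391, 393 and 383. Every Tmem173iΔmye tumor lay below every Tmem173fl/fl tumor, as for 6.47% of all genes tested, and its log2 fold change was -0.41 ± 0.13 (SE) (unadjusted p = 0.0136, adjusted p = 0.742 by edgeR). Rgs16, a brake on G protein signalling, was at 0.73 ± 0.40 (SE) with an unadjusted p of 0.108 and at 0.081 without Tmem173iΔmye replicate 1, its highest tumor. Pik3cg, a kinase activated by these receptors, was at -0.43 ± 0.26 (SE) with an unadjusted p of 0.139.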

How the data were processed

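Total RNA of 6 tumors was sequenced as polyA libraries. Per the labels' processing notes, which name tools without their roles, the authors used CASAVA 1.8, fastp, HISAT2 2.0.5, featureCounts 1.5.0-p3 and DESeq2 1.20.0 with GRCm38. For each gene, the authors deposited raw counts of reads and FPKM values. These FPKM were recomputed from the counts, gene lengths, median-of-ratios size factors and mean library total to within a relative difference of 5.0e-07. The authors' mean normalized signal per group, their log2 fold changes and their p-values, made by their own comparison, stand in the same deposited table and were not used. All 41 members had the same coordinates in GENCODE M21. Strandedness of the counting was not given in the sources used here.

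Genes with a mean FPKM of 0.5 or more were tested on their counts in R 4.3.3 by the quasi-likelihood test of edgeR 4.0.16, with TMM library sizes, genotype as the only term and p-values adjusted over 16426 genes by Benjamini and Hochberg's method. SE was taken from the fold change and its F statistic. The floor of 3 counts covers counting error only. The members and gene lists were chosen with earlier results of these data known. In counts and sums over members 1 receptor is included whose own values are not reported here. By rule, every other member is given with its counts, and fold change, SE and p for members with an unadjusted p under 0.05 or groups without overlap, for the 3 ligands and 3 receptors with the highest mean FPKM, and for up to 3 genes of each pathway list. Such values for other members were added after they were seen. The labels do not say how mice relate to libraries beyond their titles, so p-values measure the spread between libraries. In simulated counts for 16426 genes, of which 200 were changed, edgeR at an adjusted p under 0.05 found 21.4% of the changes of 1 and 78.4% of the changes of 2 on the log2 scale. The changed genes were drawn at random from all genes tested, whose median SE was 0.23 against 0.46 for members. These rates therefore do not carry over to the members. Alternatives were other filters, scalings and tests (DESeq2 1.42.0 and limma 3.58.1), a term for the replicate number or for whether Y-linked reads were present, and leaving out each tumor.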

Additional observations from a re-analysis of the deposited data

How the results depend on the processing

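Of the 25 tested members, 19 kept the sign of their log2 fold change under every alternative that gave a value. Ccrl2 was -0.034 with library totals alone and -0.53 with the Y-linked term, where Ccl9 was -0.042 and the scaffold copy of Ccl21a -0.40. Leaving out each tumor in turn gave log2 fold changes of -0.52 to 0.40 for Ccrl2, -0.58 to 0.18 for Ccl6, -2.37 to 0.32 for Ccr6, -0.40 to 0.41 for Ccl9, -0.34 to 0.96 for Ccl7 and -0.82 to 1.79 for Ccl21a. The number of members at an unadjusted p under 0.05, 2 ligands and 1 receptor, moved with most choices. For ligands it was 7 without a filter, 1 at a mean FPKM of at least 1, 5 with DESeq2, and 1 and 1 with limma on log2(FPKM + 1) and log2(FPKM + 0.1). For receptors it was 2 without a filter and 0 at a mean FPKM of at least 1, which leaves Ccr10 untested, and for other pathway genes 3 without a filter against 1. Leaving out each tumor gave 0 to 5 ligands, 0 to 3 receptors and 1 to 4 other pathway genes. Over all genes, 872 passed the study's limits without a filter, 211 with the Y-linked term and 136 with limma on log2(FPKM + 1), against 349, and 218 to 636 without each tumor. At an unadjusted p under 0.05, 1741 passed without a filter and 553 with the Y-linked term, against 1008, and 535 to 1665 without each tumor. At an adjusted p under 0.05, 6 genes passed without a filter and 28 with DESeq2, against 0, and 0 to 1 without each tumor, while 0 members passed under any alternative. The cause was not tested. Same-numbered tumors deviated from their group means with correlations across genes of 0.262, -0.00141 and 0.127. For tumors with different numbers the correlations were -0.299 to 0.179. Y-linked genes were expressed in both tumors numbered 1 and in neither numbered 3. Whether the number marks a pairing was not given in the sources used here and was not tested. With the replicate number as a block, 5 ligands (Ccl8, Ccl28, Ccl5, Ccl22 and Ccl4) and 1 receptor (Ccr10) had an unadjusted p under 0.05. The smallest adjusted p of a member in this fit was 0.240, for Ccl8. Of the 16426 genes tested, 1504 had an unadjusted p under 0.05 with the block, against 1008 without it. Counts were low for Ccl4, Ccl24 and Ccr10, which limits the precision of their fold changes.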

Other observations

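Mast cell markers summed to 223, 79.5 and 28.1 FPKM in Tmem173fl/fl replicates 1, 2 and 3 and to 116, 48.7 and 863 FPKM in Tmem173iΔmye replicates 1, 2 and 3. Tmem173iΔmye replicate 3, the highest of these, was also the highest for Ccl28, Ccl24 and Ccl11 among the tested members, and the relation was not tested. Dendritic cell markers, 2 of 7 tested, summed to 5.33 to 7.76 FPKM in Tmem173fl/fl and 6.27 to 8.97 FPKM in Tmem173iΔmye tumors. Endothelial markers summed to 59.2 to 84.6 FPKM against 44.1 to 70.4 FPKM, most of it from Prox1. Of them, 4 of the 7 tested were above 0 on the log2 scale and their median was 0.022, and Pecam1, named after its values were seen, was higher at an unadjusted p under 0.05. Fibroblast markers summed to 208 to 264 FPKM against 217 to 318 FPKM and smooth muscle markers to 75.3 to 105 FPKM against 71.9 to 99.0 FPKM. For smooth muscle markers, 3 of the 4 tested were below 0 on the log2 scale and their median was -0.50. At an unadjusted p under 0.05, 1 of these 4 was lower in Tmem173iΔmye tumors, against 2.9% of all genes tested.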
